A study of Caenorhabditis elegans with 2 samples.

Results

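The C-type lectin genes of Caenorhabditis elegans were examined for binding by MXL-3 in whole L4 larvae. The family was taken as every protein-coding gene of the Ensembl WBcel235 annotation whose symbol is clec- followed by a number, which gave 240 of 19973 protein-coding genes. Chromatin immunoprecipitation sequencing had been done on 2 biological replicates of 1 group, the transgenic strain OP745. Its transgene, wgIs745, holds mxl-3 joined to the tags TY1, EGFP and 3xFLAG together with unc-119(+), and the strain carries the unc-119 allele tm4063. The larvae were of mixed sex, 48 hours old and had been synchronised as starved L1 larvae after bleaching. The strain is a single transgenic line, and the antibody was against GFP, per the labels. The sources used here do not give the strain of the control library, and no untagged or mutant group was analysed.

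A gene was called bound where the summit of a peak in the authors' list thresholded by the irreproducible discovery rate (IDR) fell in its promoter window, which runs from 1000 bp before to 200 bp after any annotated transcript start. The 12 bound C-type lectin genes were thus selected on the thresholded list, which holds 3935 peaks. The same 3935 are the highest of a pooled list of 30000 peaks that includes background. Each replicate has a list of 30000 peaks of its own. Peak heights are given as the authors' signal value, whose scale the sources do not define and which is comparable only within its list. The read depth behind the peaks is unknown.

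C-type lectins carry a C-type lectin-like domain, a fold that in many proteins binds carbohydrate, and most worm members are predicted to be secreted or to sit in a membrane. The family has grown by tandem duplication, and many of its members are known to be expressed in the intestine and induced when worms meet pathogens. MXL-3 is a basic helix-loop-helix leucine zipper factor of the Max family, known to bind the E-box CACGTG. It is known as an intestinal repressor of lysosomal lipase genes in fed animals. Intestinal genes are widely regulated by the GATA factor ELT-2, which recognises the site TGATAA.

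The sequences of 7 of the 12 bound promoters are shown, chosen to hold the 5 summits with TGATAA within 60 bp and the 2 highest summits of the family. The other 5 bound summits, which are not shown, lack the site in that window, so that 5 of the 12 have it there. No share over all promoter peaks was taken at 60 bp, so this count only describes how the runs were chosen. The runs are given 5' to 3' on the strand of the gene, 60 bp to either side of the summit, from the RefSeq WBcel235 genome, with the site TGATAA in capitals (TTATCA where it lies on the other strand). The clec-78, clec-67 and clec-72 runs are from 1 gene cluster and cover chrIV:3988794-3988914, chrIV:3922031-3922151 and chrIV:3944626-3944746 on the plus strand. The clec-172 run covers chrIV:1516699-1516819 on the minus strand and the clec-218 run chrV:8307173-8307293 on the plus strand. The clec-50 run, chrV:19755384-19755504 on the minus strand, and the clec-140 run, chrII:4672777-4672897 on the plus strand, are from the highest summits of the family and hold no TGATAA in this window.
clec-78: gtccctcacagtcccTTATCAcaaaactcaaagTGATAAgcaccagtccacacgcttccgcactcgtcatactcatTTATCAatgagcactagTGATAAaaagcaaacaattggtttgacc
clec-67: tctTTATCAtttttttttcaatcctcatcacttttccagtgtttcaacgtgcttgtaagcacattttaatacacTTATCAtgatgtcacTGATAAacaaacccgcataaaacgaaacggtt
clec-72: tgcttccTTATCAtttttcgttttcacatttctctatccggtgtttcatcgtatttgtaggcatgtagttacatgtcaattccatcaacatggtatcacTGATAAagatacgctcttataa
clec-172: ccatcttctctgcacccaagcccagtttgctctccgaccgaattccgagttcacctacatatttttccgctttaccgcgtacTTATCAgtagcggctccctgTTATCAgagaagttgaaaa
clec-218: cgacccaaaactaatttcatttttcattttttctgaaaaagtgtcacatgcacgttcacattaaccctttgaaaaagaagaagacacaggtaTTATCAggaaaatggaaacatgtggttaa
clec-50: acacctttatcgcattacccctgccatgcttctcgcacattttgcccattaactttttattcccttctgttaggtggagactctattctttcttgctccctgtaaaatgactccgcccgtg
clec-140: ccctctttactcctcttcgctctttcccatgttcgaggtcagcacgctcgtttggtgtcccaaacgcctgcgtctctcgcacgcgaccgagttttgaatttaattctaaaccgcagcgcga

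Few C-type lectin genes were bound. The 12 bound members made up 5.00% of the family (exact 95% interval 2.61 to 8.57%), where 11.3% of all protein-coding genes (2259 of 19973) were bound. Among the 2688 other protein-coding genes that lie within 50 kb of a C-type lectin gene, 7.92% were bound (213 genes). A pooled summit of any height lay in the window of 92 members (38.3%, 32.2 to 44.8%), against 41% of all genes and 35.5% of the neighbours. The wider shares of the family and of all genes lay closer together than the thresholded ones. With a window reaching 2000 bp upstream the order turned, with 59.6% of the family against 54.0% of all genes. The family was chosen with these results known, so the shares are a description and carry no test.

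**Figure D1:**
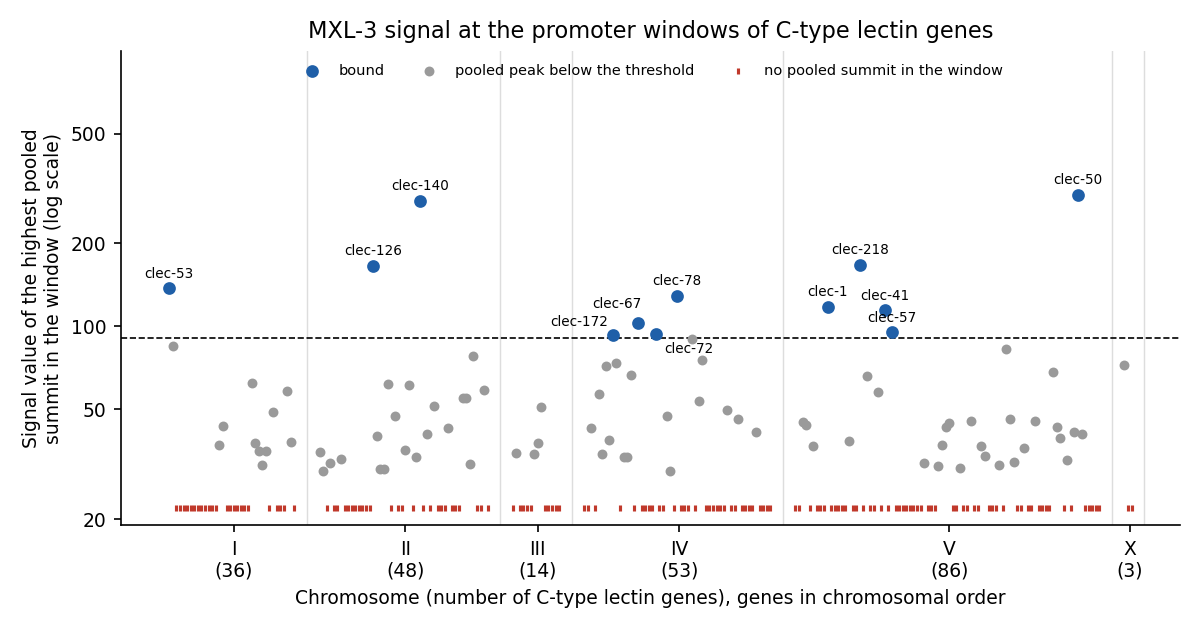
Highest pooled MXL-3 summit in the promoter window of each of the 240 C-type lectin genes, in chromosomal order (x axis), with its signal value on a log scale (y axis). Blue points are the 12 bound members, grey points the 80 with a pooled summit below the threshold (dashed line, 91.1), and red ticks at the foot, which carry no value, the 148 with none; the 2 highest stand at 301 and 286.

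With 1000 bp upstream and the full pooled list, the gap was mostly among windows that held a summit, fewer of which had one above the threshold. Of the 92 members with any pooled summit, 13.0% were bound (6.93 to 21.7%), against 27.6% of the 8180 such genes in the annotation. Among members that were not bound, 80 of 228 had a pooled summit (35.1%, 28.9 to 41.7%), against 33.4% of all genes that were not bound. This location of the gap depended on the setting. From 500 bp upstream to 100 bp downstream, any pooled summit was also less frequent in the family (22.1%, against 28.6% of all genes). The same held in the 10000 highest pooled peaks (13.8%, against 21.4%). With 2000 bp upstream the order was the reverse. Bound members were spread over 4 of the 6 chromosomes. On V 5 of 86 were bound (5.81%, against 8.85% of all genes there), on IV 4 of 53 (7.55%, against 9.36%), on II 2 of 48 (4.17%, against 10.6%) and on I 1 of 36 (2.78%, against 11.9%). None of the 14 members on III was bound, which allows a share of up to 23.2% (all genes there 12.7%). None of the 3 on X was either, with an upper limit of 70.8% (all genes there 17.1%). All of these intervals are exact and cover counting error only.

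The bound summits stood mostly in the lower part of the thresholded list, with 4 of the 12 in the stronger of its 2 equal parts. By that part alone 1.67% of the family and 5.99% of all genes were bound, against 5.00% and 11.3% by the whole list. The count of 4 is small and was given no interval. Their median signal was 124 (range 93.4 to 301), against 140 (range 91.1 to 1445) for the 1993 thresholded peaks in any promoter window, and their median rank in the pooled list was 2395.5, against 1917. Their median distance from the start was -177.5 bp, against -247 bp over all bound genes. At 10 of the 12 summits the C-type lectin gene had the nearest protein-coding start. The lowest bound member, clec-172, stood at 93.4 (rank 3778) and the highest below the threshold, clec-178, at 89.9 (rank 4020), on either side of the lowest value in the thresholded list, 91.1.

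The highest summit belonged to clec-50, with a signal of 301 at rank 429. It lay at V 19755444, between genes, -76 bp from the start of clec-50 (WBGene00012253, V 19752399 to 19755368, minus strand). The matched summits had 160 in the replicate 1 list (rank 272) and 142 in the replicate 2 list (rank 664), so both lists placed it among their higher peaks. The peak was 148 bp wide, where the median thresholded peak had 376 bp. Of the 32-mers in the clec-50 window 29.3% are repeated in the genome, counting both strands and copies within the window itself.

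The summit at clec-140 followed with 286 at rank 479, at II 4672837 and -223 bp from its start (WBGene00020220, II 4673060 to 4676285, plus strand). It had 106 in replicate 1 (rank 685) and 181 in replicate 2 (rank 382). This summit also fell in the window of hmg-11, a gene for a high mobility group protein, at -248 bp. That gene (II 4673085 to 4673746) lies within clec-140 on the same strand, so both genes run away from the same peak and the list does not assign it to either. The peak was 113 bp wide, the narrowest of the 12.

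Summits at clec-218 and clec-126 came next, with 167 and 166. At clec-218 (V 8307942 to 8310766) the summit lay at V 8307233, -709 bp from the start and the farthest upstream of the 12. It had 77.4 in replicate 1 (rank 1289) and 84.6 in replicate 2 (rank 1783). It stood between clec-218 and the divergent gene W02D7.8, for which it was at -767 bp. At clec-126 (II 3519494 to 3520712) it lay at II 3519178, -316 bp from the start, with 67.2 in replicate 1 (rank 1679) and 97.5 in replicate 2 (rank 1371). This summit was 21 and 72 bp from 2 tRNA genes, WBGene00023162 and WBGene00023161.

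The summit counted for clec-53 is nearer to another gene. It had a signal of 138 (rank 1978) at I 3873991, -589 bp from the clec-53 start, and it lay in an intron of uba-5, the divergent neighbour, which encodes the enzyme that activates the ubiquitin-like modifier UFM1. The nearest start was that of uba-5, 294 bp away, and the summit was at -374 bp from a further start of the same gene. The replicates differed here, with 36.9 in replicate 1 (rank 4877) and 97.8 in replicate 2 (rank 1363).

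In the clec-67 to clec-78 cluster 3 genes had summits of their own, all intergenic. The one at clec-78 had 129 (rank 2209) at IV 3988854, -248 bp from the start, with 51.8 in replicate 1 (rank 2667) and 75.8 in replicate 2 (rank 2214). At clec-67 it had 103 (rank 3241) at IV 3922091, -74 bp from the start, with 38.2 in replicate 1 (rank 4575) and 63.7 in replicate 2 (rank 2996). At clec-72 it had 93.7 (rank 3760) at IV 3944686, -130 bp from the start, with 49.2 in replicate 1 (rank 2934) and 48.5 in replicate 2 (rank 4715). No other protein-coding gene had these summits in its window.

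Of the other members, clec-1 had 118 (rank 2582) at V 5700067, -87 bp from its start, with 59.8 in replicate 1 (rank 2053) and 63.5 in replicate 2 (rank 3014). This summit lay in the exon of the noncoding RNA gene F25B4.12. The summit of clec-41 was the only one of the 12 downstream of the start, at +16 bp in the 5' UTR (V 13138085), with a signal of 114 (rank 2696). It had 37.2 in replicate 1 (rank 4811) and 72.3 in replicate 2 (rank 2388). It also lay in the window of the divergent dynein heavy chain gene dhc-3, at -896 bp. By its RefSeq product name clec-41 was classed with the products that name a CUB domain or cubilin.

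The remaining pair stood close to the threshold. At clec-57 the signal was 95.2 (rank 3666) at V 14468736, -495 bp from the start, with 44.8 in replicate 1 (rank 3425) and 44.9 in replicate 2 (rank 5356). The nearest start was that of srz-97, a chemoreceptor gene, divergent and at -490 bp, and the summit lay within the noncoding RNA gene F08H9.13 and 3 bp from the snRNA gene F08H9.11. At clec-172 the summit at IV 1516759, -132 bp from the start, had 23.6 in replicate 1 (rank 12667) and 72.2 in replicate 2 (rank 2394). The clec-172 peak was thus among the higher peaks of replicate 2 and not of replicate 1.

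Several bound summits were shared with another gene or lay beside a small RNA gene. Of the 12 summits 5 lay in the windows of more than 1 protein-coding gene (41.7%, exact 95% interval 15.2 to 72.3%), against 399 of 1993 thresholded promoter peaks (20.02%). The 5 were those of clec-140, clec-218, clec-53, clec-41 and clec-57. Genes annotated as tRNA, snRNA, snoRNA or ncRNA, of any length, were taken as small RNA genes. They lay within 200 bp of 3 summits (25%, 5.49 to 57.2%), namely those of clec-126, clec-1 and clec-57, against 17.2% of thresholded promoter peaks. The clec-1 summit was counted only for the ncRNA gene F25B4.12. The summits of clec-50, clec-67, clec-72, clec-78 and clec-172 had neither. Leaving out peaks near small RNA genes, a choice made after the data were seen, left 9 members bound (3.75%), against 9.46% of all genes.

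The replicates placed the 12 summits unevenly. All 12 had a summit within 100 bp in both replicate lists. They ranked within the first 3935 of both lists in 6 cases (50%), against 1440 of 1993 thresholded promoter peaks (72.3%). The share of 50% rests on 12 summits and was given no interval, so it is a description only. The comparison was not matched on pooled rank, where the 12 summits had a median of 2395.5, against 1917. Replicate 2 alone had 4 of them within that rank (clec-53, clec-41, clec-67 and clec-172) and replicate 1 alone had 2 (clec-57 and clec-72). Using the first 3935 peaks of replicate 2 in place of the thresholded list left 11 members bound, without clec-57 and clec-72 and with clec-150. Using those of replicate 1 left 10, without clec-172, clec-41, clec-53 and clec-67 and with clec-178 and clec-80. The 6 members high in both lists were clec-50, clec-140, clec-218, clec-126, clec-78 and clec-1.

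**Figure D2:**
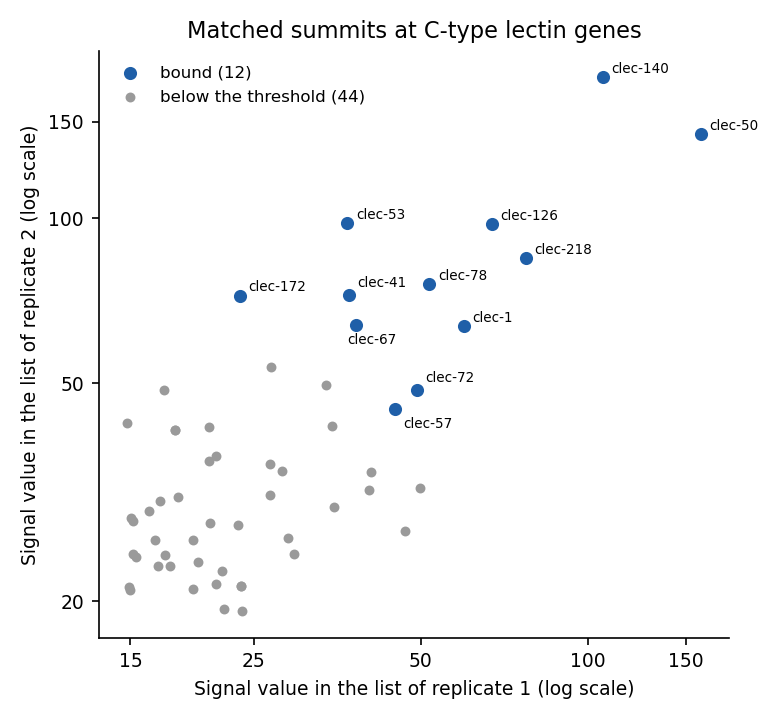
Signal values of matched summits at C-type lectin genes in the replicate 1 list (x axis) and the replicate 2 list (y axis), both on log scales and each comparable only within its own list. Blue points are the 12 bound members and grey points the 44 members below the threshold that had a summit within 100 bp in both lists; clec-172 lies far to the left of the other bound members at its height, with 23.6 in replicate 1 and 72.2 in replicate 2.

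Below the threshold, 80 members had 96 distinct pooled peaks in their windows. Their highest summits had a median signal of 41.5 (range 29.8 to 89.9), against 45.4 for all genes with a pooled summit below the threshold, and a median rank of 16880.5, against 14012. A best rank within 10000 was found for 21 members and one over 20000 for 32. In both replicate lists 44 of the 80 had a matching summit within 100 bp, in 1 list 30 had one, and in neither list 6.

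The highest of these was clec-178, and its neighbourhood was bound even though its promoter was not. The pooled summit at IV 5653121, -828 bp from the start, lay in the 5' UTR of skn-1, the gene for an oxidative stress and immunity factor that spans clec-178 on the opposite strand (IV 5651039 to 5660384). It had 49.8 in replicate 1 (rank 2872) and 32.2 in replicate 2 (rank 10246). A thresholded summit with a signal of 104 (rank 3183) lay inside clec-178 at IV 5654428, 479 bp downstream of its start and outside every promoter window.

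The next members were clec-89 (signal 84.9, in an intron of unc-89), clec-239 (83.1), clec-65 (78.2), clec-51 (75.6) and clec-80 (73.7). They were followed by clec-265 (72.6, on X), clec-170 (72.05), clec-251 (68.4) and clec-85 (66.7). The summits of clec-65, clec-51 and clec-265 lay at -95, -57 and -70 bp, in intergenic sequence next to the start. Those of clec-89 and clec-80 lay at -632 and -911 bp and within other genes. The summit of clec-51 had 4 TGATAA sites within 100 bp, and those of clec-65, clec-265 and clec-170 had 2 each. Those of clec-89, clec-239 and clec-85 had 1 each, and those of clec-178, clec-80 and clec-251 had none.

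MXL-3's own E-box was absent from the bound summits. CACGTG, searched on both strands, was found at 0 of the 12 summits within 100 bp, which allows a share of up to 26.5%, against 14.6% of the 1993 thresholded promoter peaks. It was present at 3 of the 96 pooled peaks below the threshold (3.13%, 0.649 to 8.86%), against 6.48% of 7637 such promoter peaks in all. These 3 peaks belonged to clec-224 (signal 57.6, the hexamer 8.5 bp from the summit), clec-190 (46) and clec-254 (39.5). The hexamer itself was not missing from the promoters: 43 members had it somewhere in their window (17.9%, 13.3 to 23.4%), against 21.5% of all genes. Of those 43, 2 were bound (4.65%, 0.568 to 15.8%), against 17.5% of all genes with the hexamer in the window. They were clec-172 and clec-53, whose hexamers lay 846.5 and 304.5 bp from the summit. A pooled summit of any height lay in 23 of the 43 windows (53.5%), against 49.6%.

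Other motifs were found at few of the 12 summits. CACATG, or CATGTG on the other strand, lay within 100 bp of 2 of the 12 summits (16.7%), against 15.4% of thresholded promoter peaks, and the 2 were those of clec-218 and clec-172. At clec-218 both of its copies are in the printed window, in lower case, 13.5 and 52.5 bp from the summit. CAAGTG, or CACTTG, was present at 1, that of clec-41 (8.33%, against 13.1%). GAGAGA, or TCTCTC, was at 3 (25%, 5.49 to 57.2%), those of clec-140, clec-78 and clec-57, against 42.3%.

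GATA-type sites were common at the summits and in the promoters of the family as a whole. TGATAA, searched on both strands after the data were seen, was found near 7 of the 12 summits, at most 100 bp away (58.3%, exact 95% interval 27.7 to 84.8%), against 528 of 1993 thresholded promoter peaks (26.5%). The summit of clec-78 had 6 copies, those of clec-67 and clec-72 had 3 each, those of clec-218 and clec-172 had 2 each, and those of clec-50 and clec-41 had 1 each. At peaks below the threshold the share was 32.3% (23.1 to 42.6%), against 22.7% of such promoter peaks in all. Windows around the bound summits of the family held a median of 42.3% G or C, against 44.3% at thresholded promoter peaks.

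Members without any peak had the site often too. In the 300 bp upstream of the gene, 126 of the 240 members had TGATAA (52.5%), against 30.7% of all genes. By status these were 9 of 12 bound members (75%), 47 of 80 below the threshold (58.8%) and 70 of 148 with no pooled summit (47.3%). All genes in the same states stood at 31.2%, 33.4% and 29.3%. At least 2 sites were found in 58.3% of bound members, 25% of those below the threshold and 19.6% of those with no summit, against 10.3%, 8.90% and 7.09% of all genes. A hexamer match is a description of sequence and was not tied to any factor here.

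**Figure D3:**
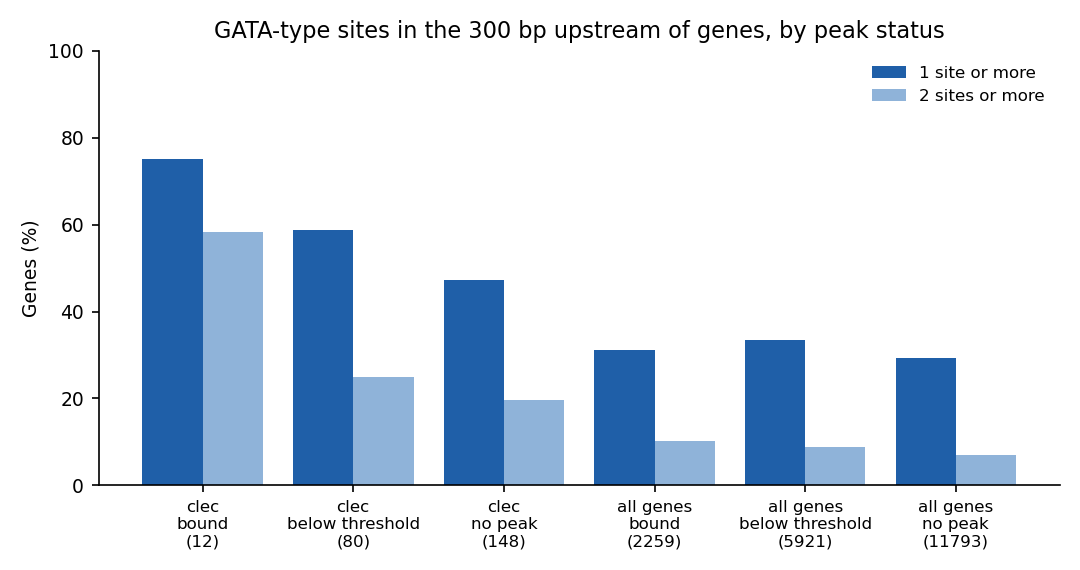
Share of genes (y axis, percent) with at least 1 (dark bars) and at least 2 (light bars) TGATAA sites in the 300 bp upstream, for C-type lectin genes and then all protein-coding genes, each split into bound, below the threshold and without a pooled summit, with the number of genes in brackets. The C-type lectin genes stand higher in all 3 states, at 75%, 58.8% and 47.3% against 31.2%, 33.4% and 29.3% for 1 site or more.

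Many members lie in clusters, and in 3 of the 4 clusters with a bound member it was a single gene. With clusters taken as at least 3 C-type lectin genes no more than 50 kb apart, 24 clusters held 125 members. Of these 6 were bound (4.8%, 1.78 to 10.2%), against 6 of the 115 outside clusters (5.22%, 1.94 to 11.01%). Both intervals ended below the share over all protein-coding genes, 11.3%. A pooled summit of any height lay at 57 clustered members (45.6%, 36.7 to 54.7%), against 35 of those outside (30.4%, 22.2 to 39.7%). Over all protein-coding genes 41% had one, a share inside the interval of the clustered members and above that of the members outside. Of the 24 clusters 4 held a bound member and 18 held a member with any pooled summit. The cluster with the most members, the 13 genes from clec-40 to clec-33 on V, had 0 bound and 5 with a pooled summit.

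The cluster with more than 1 bound member is that from clec-67 to clec-78 on IV (3922165 to 4014235), with 12 genes over 92.1 kb. Its bound members clec-67, clec-72 and clec-78 stood among 7 genes with no pooled summit in the window, which were clec-68, clec-70, clec-71, clec-174, clec-73, clec-74 and clec-79. The other 2 had low summits inside their coding sequence, clec-75 with 47.3 and clec-76 with 30.001. Within 2 kb of the cluster the pooled list held 41 summits, 3 of them above the threshold, and all 3 were those at the bound promoters.

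The promoters of this cluster were compared over the 300 bp upstream of each gene. The bound members had 3 (clec-67), 3 (clec-72) and 5 (clec-78) TGATAA sites there, and the other 9 genes had between 0 (clec-79) and 2. The site was counted after the data were seen, so this split carries no test. Elsewhere in the family, members with no pooled summit had up to 4 sites. The closest copies, clec-73 and clec-79, were identical at 95.6% of 249 aligned bases, and neither had a pooled summit in its window. The bound clec-72 and clec-70, which had no pooled summit, were identical at 74.7% of 281 aligned bases. Between bound members the identity was 69.96% of aligned bases for clec-67 and clec-72, 59.2% for clec-72 and clec-78 and 57.6% for clec-67 and clec-78. These pairs had 163, 151 and 129 identical bases in that order, against a median of 147.5 over the 66 pairs of the cluster. Bases opposite gaps are left out of the percentages. No promoters from outside the cluster were aligned, so the identity that unrelated sequence would reach this way is not known. Thus clec-72 had a peak in its window, and clec-70, the cluster member most like it in upstream sequence, had none. The windows of this pair differed in repeated sequence, with 32.4% repeated 32-mers at clec-70 and 4.41% at clec-72. Whether this bears on the absence of a clec-70 peak was not tested. Directly beyond clec-78 lies hlh-30, which encodes the TFEB homologue and whose 3' end faces that of clec-78 across 557 bp.

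**Figure D4:**
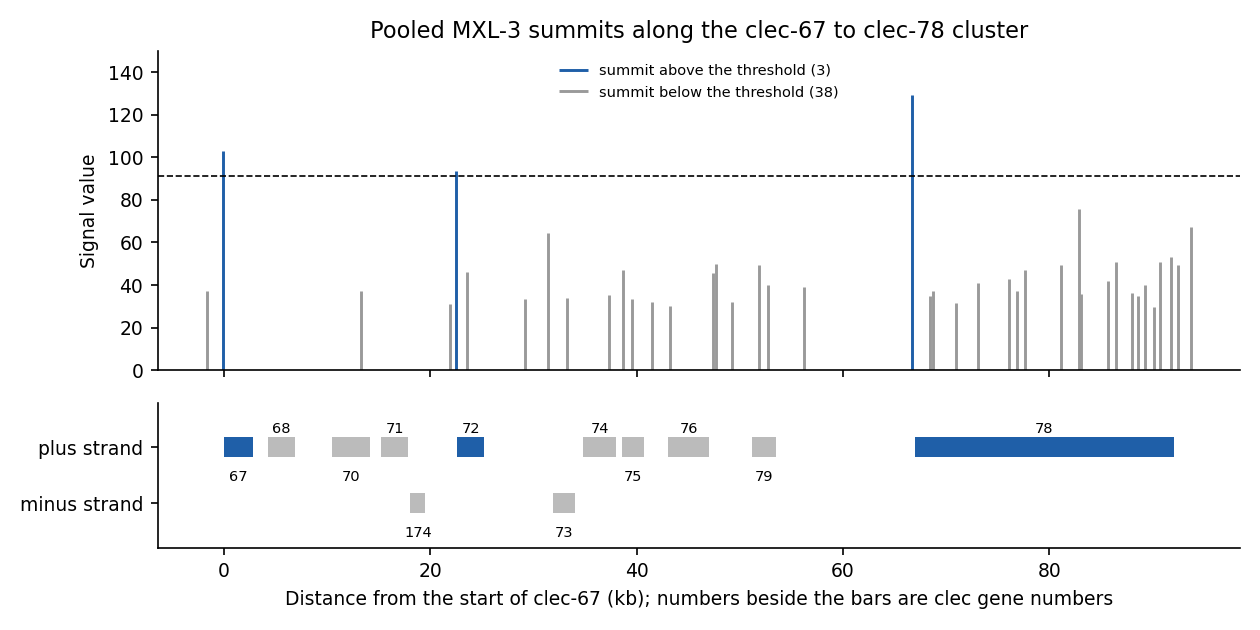
Upper panel, signal values (y axis) of all pooled summits along the clec-67 to clec-78 cluster by distance from the start of clec-67 in kb (x axis), with the lowest thresholded value as a dashed line; lower panel, the 12 genes by strand, with bound genes in blue and the others in grey. The 3 summits above the threshold (blue, 103, 93.7 and 129) stand at the starts of clec-67, clec-72 and clec-78, and the 38 others are below it.

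Repeated sequence was a feature of some windows of the family. The symbols clec-15, clec-209 and clec-249 each name 2 gene records, so the 240 records carry 237 symbols. In the median window of the family 0.583% of the 32-mers are repeated in the genome, against 0 in the median window of all genes. For 105 members the window had no repeated 32-mer. Windows with more than 50% repeated 32-mers were found at 8 members, namely both records of clec-15, clec-209 and clec-249 with clec-175 and clec-225. None of the 8 had a pooled summit. The sources used here give neither the read length nor the treatment of reads that map to several places, and their part in the absence of these peaks was not tested.

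Of 13 members known from studies of infected worms, 2 were bound (clec-41 and clec-67), which is 15.4% (exact 95% interval 1.92 to 45.4%), against 5.00% of the family and 11.3% of all genes. A further 3 had a pooled summit below the threshold, clec-85 with 66.7, clec-42 with 45.5 and clec-49 with 41.4. The other 8, clec-4, clec-7, clec-17, clec-39, clec-52, clec-60, clec-70 and clec-71, had none. Genes that regulate the immune response held higher peaks than any member of the family in 2 cases. These were zip-2, a bZIP factor gene of the response to Pseudomonas, with 697 (rank 47), and hlh-30 with 381. Thresholded summits also lay at tir-1, the adaptor upstream of the p38 kinase pathway (274), atf-7, a transcription factor of that pathway (212), skn-1 (133) and elt-2 (100.5). The kinase genes pmk-1 (38.1) and sek-1 (37.0) and the FOXO gene daf-16 (69.2) had summits below the threshold. None of nsy-1, dbl-1, hlh-26 and fshr-1 had a pooled summit in the window. In all, 6 of the 13 regulators were bound (46.2%, 19.2 to 74.9%), against 11.3% of all genes, on a list chosen by hand with these results known.

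Set beside other gene families, the share of bound C-type lectin genes was near that of several others. At 5.00% it lay close to the UDP-glucuronosyltransferases (ugt, 4.48%), the cytochromes P450 (cyp, 4.05%) and the F-box A proteins (fbxa, 4.12%), and the intervals of all 4 overlapped. The nuclear hormone receptors (nhr, 17.8%, 13.5 to 23.0%) and glutathione S-transferases (gst, 25%, 13.2 to 40.3%) had intervals wholly above that of the C-type lectins. Cuticle collagens (col) stood at 10.3%. Among families of immune effectors, 6 of 31 saposin-like genes were bound (19.4%, 7.45 to 37.5%), with spp-18 (222), spp-5 (212) and spp-8 (200.3) the highest. Single members were bound among 10 lysozymes (lys-8, 119, 10%, 0.253 to 44.5%) and 6 invertebrate-type lysozymes (ilys-5, 125, 16.7%, 0.421 to 64.1%). The same held for 11 caenacins (cnc-2, 122, 9.09%, 0.23 to 41.3%) and 29 fungus-induced proteins (fipr-21, 145, 3.45%, 0.0873 to 17.8%). Each of these wide intervals held the share of all protein-coding genes, 11.3%. None of 8 irg genes was bound, which allows a share of up to 36.9%. By any pooled summit the C-type lectins (38.3%) lay between the invertebrate-type lysozymes (33.3%) and the cytochromes P450 (43.2%).

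**Figure D5:**
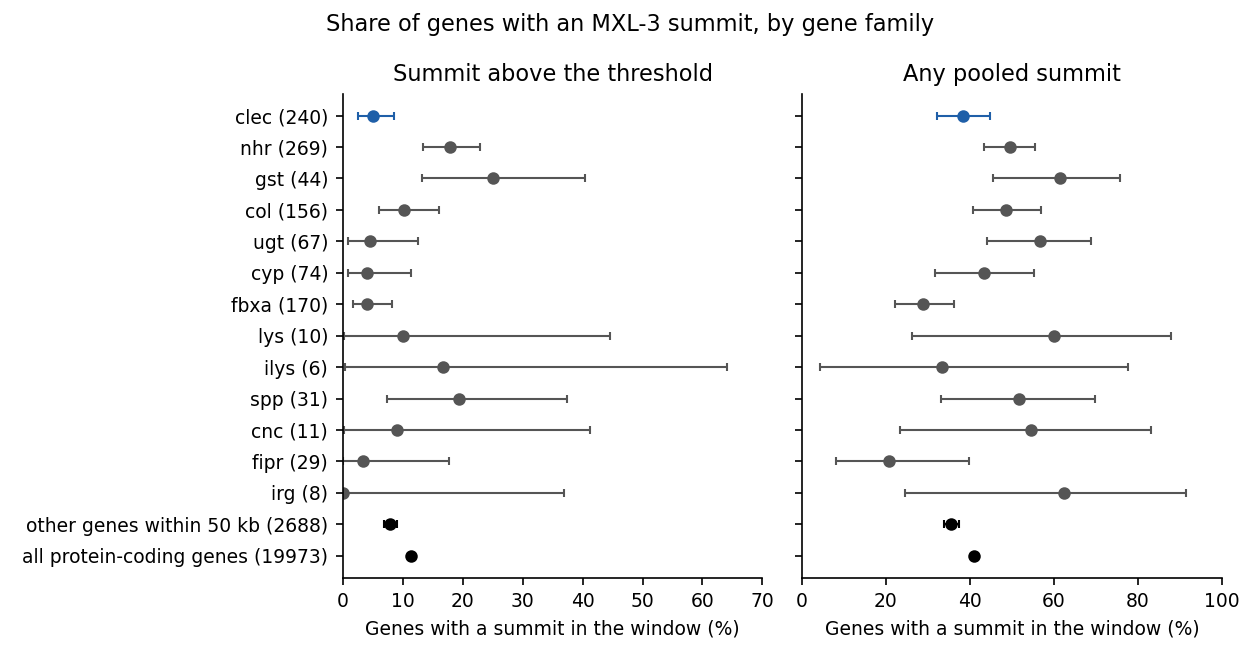
Share of genes with an MXL-3 summit in the promoter window (x axis, percent), above the threshold (left panel) and of any height in the pooled list (right panel), for the C-type lectin genes (top, blue), 12 other families, the other genes within 50 kb of a C-type lectin gene and all protein-coding genes, with the number of genes in brackets. Points are shares and bars exact 95% intervals; in the left panel the C-type lectin genes stand at 5.00% and all genes at 11.3%.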

How the data were processed

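MXL-3::EGFP peaks were measured in 2 replicates of 1 group, so no comparison between groups was possible. The authors deposited narrowPeak lists on ce11, the WBcel235 sequence, with a signal value per peak. Per the listings deposited with the samples, lists came from each replicate and from both pooled, each with a control, and the IDR-thresholded list came from the pooled one. The sources used here give no peak caller, aligner or read depth, and no error could be given for the signal values.

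Summits (1-based) were assigned to Ensembl release 115 starts and to the RefSeq WBcel235 genome. Shares carry exact Clopper-Pearson 95% intervals over genes or peaks, which cover counting error only and take genes as independent, though neighbours share peaks. Summits within 100 bp counted as matched. Motifs were searched on both strands. The assignment was tested on simulated summits. Alternatives were other windows, the nearest start, each replicate list, stronger peaks and other cluster gaps.

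Genes were named if bound or sharing a bound summit, among the 10 highest below the threshold, or on lists of infection-related members, immune regulators and other families (up to 3 of each). Of 14 infection names 1, clec-46, matched no protein-coding gene. Members and lists were chosen with earlier results of these data known. The counts of TGATAA, repeated 32-mers and sequence identity were added after the data were seen, and members named for these, for clusters or for alternatives were chosen after their values were seen. The tools were Biopython 1.88, matplotlib 3.10.9, scipy 1.17.1, pandas 2.3.3, numpy 2.4.6 and Python 3.11.15.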

Additional observations from a re-analysis of the deposited data

How the results depend on the processing

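The count of 12 bound members was 10 with a window of 500 bp upstream and 100 bp downstream, 14 with 2000 bp upstream, 13 by the nearest start within 2000 bp and 9 without peaks near small RNA genes. Kept to the stronger of 2 equal parts of the thresholded peaks, it was 4. Under the same choices the share of all genes was 8.55%, 15.2%, 12.4%, 9.46% and 5.99%. With 1 replicate left out the family had 10 to 11 bound members and all genes 10.6 to 11.4%. The members counted changed more than their number, since 10 of the 12 remained without replicate 1 and 8 without replicate 2.

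The share of the family with any pooled summit was 22.1% with the shorter window (all genes 28.6%), 59.6% with the longer one (all genes 54.0%) and 13.8% in the 10000 highest pooled peaks (all genes 21.4%). In the replicate lists the family stood at 41.25% without replicate 1 (all genes 41.98%) and at 35.8% without replicate 2 (all genes 40.8%), so the gap was small in the first and wider in the second. CACGTG was at 0 of the bound summits within 50 and 200 bp as well. The clusters held 106 members with a gap of 20 kb and 138 with 100 kb. Counting each shared symbol once left 12 bound. No paired analysis was possible because there is 1 group. The depth of the libraries is unknown, so a window without a summit is not evidence that MXL-3 is absent there.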

Other observations

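The product names in RefSeq divide the clec symbols further. Over all protein-coding genes 11.3% were bound and 41% had a pooled summit of any height, and the small classes have wide intervals that hold these values. Each gene was put in the first class that its product names matched, with C-type lectin looked for after the domains below. Of the 240 members 207 were thus classed as C-type lectin, and 11 of them were bound (5.31%, exact 95% interval 2.68 to 9.31%). A PAN-3 domain is named in 14 products, with 0 bound (up to 23.2%) and 5 with a pooled summit (35.7%, 12.8 to 64.9%), among them clec-251. A von Willebrand factor A domain is named in 8, with 0 bound (up to 36.9%) and 5 with a pooled summit (62.5%, 24.5 to 91.5%). A CW domain is named in 5, with 0 bound (up to 52.2%) and 2 with a pooled summit (40%, 5.27 to 85.3%). Of 4 products with a CUB domain or named cubilin 1 was bound, that of clec-41 (25%, 0.631 to 80.6%), and 2 had a pooled summit (50%, 6.76 to 93.2%).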
